A study of Mus musculus with 2 samples.

Results

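Chromaffin cells of the adrenal medulla store catecholamines and peptides in dense-core granules. The genes behind those granules were described by their open chromatin in mouse adrenal gland. They are the granins Chga, Chgb, Scg2 and Scg3, the prohormone-processing proteins Pcsk1, Pcsk2, Scg5 and Cpe, and the peptide precursors Penk and Npy. They were chosen by name for their function, with earlier results of these data known, and are 10 of the 21802 protein-coding genes examined. DNase-seq treats nuclei with the nuclease DNase I, which cuts accessible DNA more often, and sequences the cut ends. Adrenal glands came from adult male mice of the hybrid strain B6CASTF1/J, whose age was 18 to 20 months. There were 2 libraries, biological replicates 1 and 2, in a single group with no treatment named in the labels, so no condition could be compared. The labels name a separate tissue sample for each library but the same donor entry, so the spread between libraries may be technical.

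Granins are acidic proteins that help to condense granule cargo and are themselves cut into peptides. The cutting is done by the prohormone convertases PC1/3 (Pcsk1) and PC2 (Pcsk2), and carboxypeptidase E (Cpe) then trims the basic residues left at the ends. Many of these genes are also used in neurons and in pancreatic and pituitary endocrine cells. The repressor REST, also called NRSF, binds an element named RE1 and keeps neuronal and neuroendocrine genes off in other cells. The factor CREB binds the cyclic AMP response element (CRE), whose full form is TGACGTCA, and CTCF is a factor found at insulators and chromatin loop ends.

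The sequences that recurred at some of these genes are shown first. A footprint is a stretch inside open chromatin that is cut less than its surroundings, as called by the authors; here a footprint is counted when it was listed in both libraries, with an overlap of at least 1 bp. In the set below, RE1 is written as CAGCACC and GGACAG with any 2 bases between them, and the capitals mark the letters of that pattern. The sequences are RefSeq GRCm38.p6, read on the plus strand. They lie at chr12:102555234-102555262 (Chga, intron 1), chr2:132781790-132781820 (Chgb, intron 1), chr2:143536674-143536701 (upstream of Pcsk2), chr12:102550690-102550719 (upstream of Chga, 1 of 13 letters differing) and chr1:79440020-79440048 (Scg2, where these runs abut). The Scg2 site lies in the first exon of GENCODE and 13 bases upstream of the RefSeq start, which is 94 bp downstream of the GENCODE 5′ end.
Chga intron 1: aggattCAGCACCtcGGACAGcaccaggt
Chgb intron 1: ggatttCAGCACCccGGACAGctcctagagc
Pcsk2 upstream: atcgtCAGCACCacGGACAGagctcacc
Chga upstream: gtgtttCAGgACCacGGACAGcgacacggc
Scg2 start: gccgtttCAGCACCGGACAGctcctcggc

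The next set holds the CRE letters near the starts of the granins and of Pcsk1, with the CRE or its core TGACG in capitals, from the RefSeq promoter table of GRCm38.p6 in the direction of each gene. They lie at chr1:79440077-79440104 (Scg2, minus strand), chr2:132781560-132781587 (Chgb, plus strand), chr13:75089769-75089796 (Pcsk1, plus strand), chr12:102554887-102554914 (Chga, plus strand) and chr9:75684069-75684096 (Scg3, minus strand).
Scg2 CRE: gctgagccggTGACGTCAgcgtggaatg
Chgb CRE: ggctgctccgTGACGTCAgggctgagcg
Pcsk1 CRE: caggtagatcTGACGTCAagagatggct
Chga CRE core: ggcggtcctaTGACGtaatttcctgggt
Scg3 CRE core: gctgggtcgcTGACGccatcctcacgcc

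Promoters of the granule genes were mostly open but low. A promoter was taken as the sequence within 1 kb of a protein-coding transcript start. A peak was listed there in both libraries for 9 of the 10 genes (90%), against 64.8% of all protein-coding genes. The authors' peak height is a normalised signal with no unit, and the highest promoter peak stands for each gene. The median of the 9 mean heights was 1.08, against 3.89 for the 14119 genes open in both libraries, and 0 of the 9 lay above that median. The share of open cells and the openness per open cell cannot be told apart in whole tissue, where the medulla is a minor part. Low heights were not particular to these genes. Among markers open in both libraries, the median was 1.98 for adrenal cortex, 1.89 for endothelium and 1.46 for neurons, also below 3.89. It was 4.08 for fibroblast, 4.69 for Schwann cell and 7.21 for chromaffin markers, above 3.89.

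**Figure D1:**
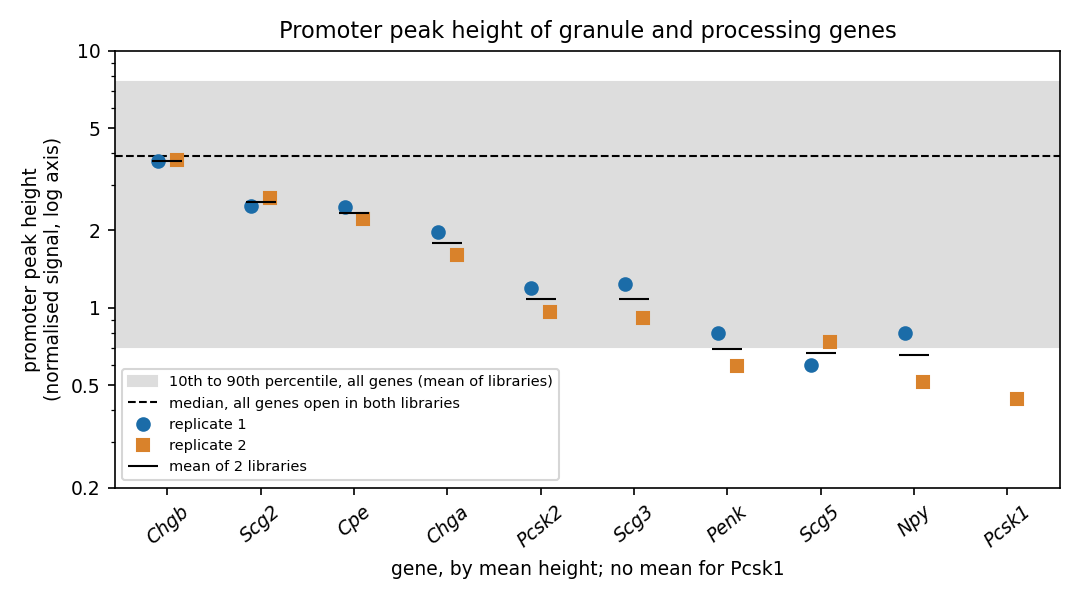
Height of the highest promoter peak (y axis, normalised signal on a log axis) of each of the 10 genes (x axis) in replicate 1 (circles) and replicate 2 (squares), with bars at the mean. The dashed line is the median of genes open in both libraries, 3.89, and the grey band spans the 10th to 90th percentile of promoter heights; the 9 means lie below the line, and Pcsk1 has a point in replicate 2 alone.

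Chgb and Scg2 stood highest of the 10. Chgb (ENSMUSG00000027350.8, chr2:132781278-132795079, plus strand) encodes chromogranin B and had heights of 3.71 in replicate 1 and 3.77 in replicate 2, a mean of 3.74 ± 0.0469 (SD, n = 2 libraries, as for every mean here). Of the genes open in both libraries, 47.9% had a lower mean. Scg2 (ENSMUSG00000050711.7, chr1:79434669-79440120, minus strand) encodes secretogranin II, the precursor of secretoneurin. Its promoter stood at 2.5 in replicate 1 and 2.68 in replicate 2, a mean of 2.59 ± 0.129. Chga (ENSMUSG00000021194.6, chr12:102554969-102565028, plus strand) encodes chromogranin A, the source of catestatin and pancreastatin. Its heights were 1.98 and 1.61, a mean of 1.79 ± 0.256. Scg3 (ENSMUSG00000032181.7, chr9:75643189-75684056, minus strand) encodes secretogranin III, which binds chromogranin A at the granule membrane, and had heights of 1.24 and 0.915, a mean of 1.08 ± 0.232. The heights of these 4 genes did not overlap one another.

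The promoter peaks of Chga and Chgb did not cover their annotated starts. In Chga the peak began 172 bp downstream of the GENCODE start in replicate 1 and 192 bp downstream in replicate 2, and its centre lay at 272 and 282 bp. In Chgb it began 423 bp downstream in both libraries, with its centre at 523 bp. RefSeq places the Chgb start 364 bp downstream of the GENCODE one, and the Chga start 28 bp upstream of it. Both peaks held the intron 1 RE1 letters shown above. The Scg2 and Scg3 peaks, by contrast, overlapped their starts in both libraries.

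Cpe (ENSMUSG00000037852.8, chr8:64592542-64693054, minus strand) had promoter heights of 2.46 in replicate 1 and 2.22 in replicate 2, a mean of 2.34 ± 0.169, which placed it between Scg2 and Chga. Pcsk2 (ENSMUSG00000027419.9, chr2:143546156-143816285, plus strand) had 1.19 and 0.96, a mean of 1.08 ± 0.166, and its values overlapped those of Scg3. Scg5 (ENSMUSG00000023236.7, chr2:113776362-113829121, minus strand), which encodes 7B2, the chaperone of PC2, had 0.6 and 0.735, a mean of 0.667 ± 0.0955. The PC2 enzyme and its chaperone thus both had low promoter peaks, present in both libraries.

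Pcsk1 (ENSMUSG00000021587.5, chr13:75089826-75134861, plus strand) was the gene without a promoter peak in both libraries. Replicate 1 listed no promoter peak, and no position within 1 kb of its starts in the FDR file. Replicate 2 listed 4 promoter peaks, the highest at 0.442, and 4.51% of the genes with a promoter peak in that library were lower. They fell into regions of heights 0.36, 0.315 and 0.442, centred 1.04 kb upstream and 0.085 and 0.645 kb downstream of the 5′ end. The lowest FDR in the deposited file within 1 kb was 5.41e-06 in replicate 2. Whether Pcsk1 is open in replicate 1 was not detectable from the listed positions.

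Peptide precursors had the lowest shared promoter peaks along with Scg5. Penk (ENSMUSG00000045573.9, chr4:4133531-4138819, minus strand), the proenkephalin gene, had 0.796 in replicate 1 and 0.592 in replicate 2, a mean of 0.694 ± 0.144. Npy (ENSMUSG00000029819.6, chr6:49822710-49829507, plus strand), which encodes neuropeptide Y, a peptide released together with catecholamines, had 0.796 and 0.517, a mean of 0.657 ± 0.197. Penk, Scg5 and Npy overlapped their neighbours in the order, so their ranks are not resolved by 2 libraries. Of genes open in both libraries, 7.01% had a lower mean than Penk, 6.39% than Scg5 and 6.21% than Npy.

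Between replicates, these promoters were set beside all genes by the ratio of their heights. The log2 ratio of replicate 1 over replicate 2 had a median of 0.29 over the 9 genes and ran between -0.29 (Scg5) and 0.62 (Npy), with 6 genes higher in replicate 1 and 3 in replicate 2. Over all genes open in both libraries its median was 0.05, with quartiles of -0.16 and 0.25, and 6 of the 9 genes lay outside those quartiles. By definition about as many genes lie outside the quartiles as between them, so 6 of 9 is not far from the share of all genes. A single gene of the 9, Npy, differed by more than 1.5 times, against 7.72% of all genes open in both libraries. Heights came in whole steps of 0.00531 in replicate 1 and 0.0075 in replicate 2, so the Npy peak was 150 steps in replicate 1 and 69 in replicate 2. The deposited FDR within 1 kb was lowest at Chgb, 3.14e-53 in replicate 2 and 1.58e-40 in replicate 1. Among the 9 genes with a listed position in both libraries it was highest at 0.000816 in replicate 1, at Scg5, and at 0.00016 in replicate 2, at Penk.

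Beyond the promoters, the genes differed in how much open chromatin surrounded them. Peaks of the libraries that overlapped were merged into regions over each gene body plus 50 kb on each side. These windows held 113 regions, of which 45 had a peak in both libraries. Of those 45, 13 lay at the promoters of the 10 genes, 9 at promoters of neighbouring genes and 23 were distal. Distal means more than 1 kb from any protein-coding transcript start examined, and intergenic means outside the protein-coding genes examined. Starts of noncoding transcripts were not searched. The 23 distal regions were 15 intronic and 8 intergenic, with a median height of 0.912, against 0.976 for all 43097 shared distal regions of the genome. In the windows, 54.1% of the replicate 1 peaks and 61.0% of the replicate 2 peaks lay in shared regions, against 70.0% and 58.4% of all peaks of those libraries.

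**Figure D2:**
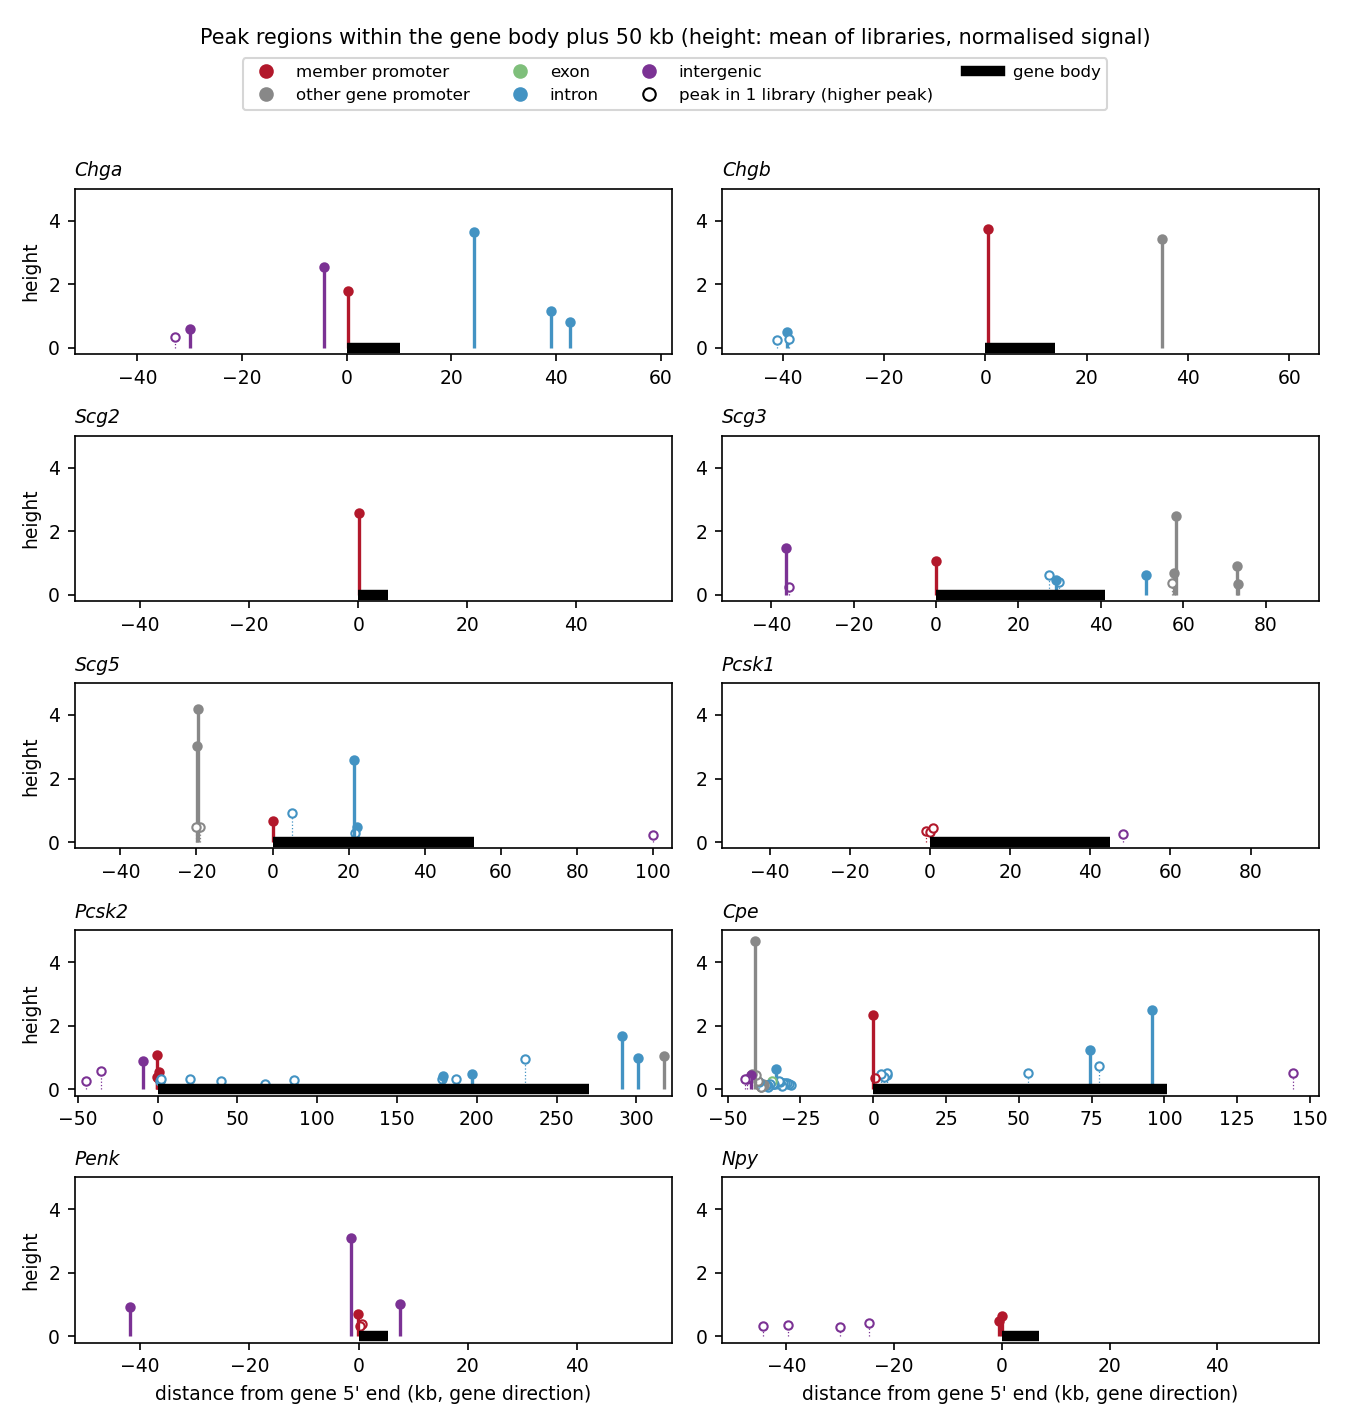
Peak regions around each of the 10 genes, by distance from the gene's 5′ end in kb in the direction of the gene (x axis) and height in normalised signal (y axis). Filled points are regions of both libraries at their mean height, open points are regions of 1 library at its highest peak, colours give the place and black bars the gene body; Scg2 has a single region, and the Penk region 1.46 kb upstream stands above the Penk promoter.

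Among the granins, Chga had 5 shared distal regions in 110.1 kb, or 4.54 per 100 kb, and 78.5% of genes had a lower density. Its highest was 24.3 kb downstream of the start, at chr12:102579141-102579320 in an intron of the neighbour Itpk1, an inositol phosphate kinase gene. It measured 3.47 in replicate 1 and 3.84 in replicate 2, a mean of 3.65 ± 0.264. The next was 4.25 kb upstream of Chga in intergenic sequence, with heights of 2.41 and 2.68 and a mean of 2.55 ± 0.194. Both stood above the Chga promoter in both libraries. The 4.25 kb region also holds the RE1 pattern with 1 differing letter that is shown above.

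Scg2 was the opposite case. Its 105.5 kb window held 1 region, the promoter itself, in both libraries, while 18.1% of all genes had no shared distal region. Chgb had 1 shared distal region, 39.2 kb upstream in an intron of Shld1, at a height of 0.48 ± 0.0641. The other shared region near Chgb was the common promoter of Trmt6 and Mcm8, at 3.42 ± 0.572. Scg3 had 3 shared distal regions, the highest 36.4 kb upstream with 1.08 in replicate 1 and 1.85 in replicate 2. That difference of libraries was larger than at the Scg3 promoter.

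In the processing group, Scg5 held an intronic region 21.3 kb downstream of its start, at chr2:113807781-113807940. Its heights were 2.53 and 2.65, a mean of 2.59 ± 0.0849, against 0.667 ± 0.0955 at the Scg5 promoter. Cpe had intronic regions 95.8 and 74.3 kb downstream of its start, with means of 2.48 ± 0.249 and 1.22 ± 0.0084. Pcsk2, the longest of the genes with a window of 370.1 kb, had 4 shared regions at its promoter and 5 shared distal regions, or 1.35 per 100 kb, below the all-gene median of 2.25. The highest, 1.68 ± 0.493, lay 291.0 kb from the Pcsk2 start in an intron of Bfsp1, beyond the end of Pcsk2. Pcsk1 had no shared region of any kind and a single distal peak, of 0.244 in replicate 1, 48.2 kb from its start.

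Among the 10 genes, Penk showed the widest gap between its promoter and a distal region. A region 1.46 kb upstream, at chr4:4140181-4140380, had heights of 3.17 in replicate 1 and 3.06 in replicate 2, a mean of 3.11 ± 0.0777. The Penk promoter averaged 0.694 ± 0.144, and the values of the region and the promoter did not overlap. With promoters taken as within 5 kb the region itself becomes the Penk promoter peak, at 3.11, and the gap is gone. Of all shared distal regions of the genome, 91.2% were lower. The other shared distal regions in the Penk window lay 7.62 kb downstream of the start at 1.02 ± 0.193 and 41.9 kb upstream at 0.912 ± 0.449. Npy had no shared distal region: its 4 distal peaks, between 0.313 and 0.414, were in replicate 1 alone. Over the 10 genes, 9 shared distal regions stood above the promoter of their gene by mean height. In replicate 1, however, the Scg3 region 36.4 kb upstream (1.08) lay below its promoter (1.24). So did the Penk region 41.9 kb upstream (0.595 against 0.796). The Cpe region 95.8 kb downstream (2.65 and 2.3) overlapped the Cpe promoter (2.46 and 2.22). The same count was not made over all genes. The promoter means of these genes all lay below the all-gene median of 3.89, so the count cannot be read as particular to them.

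**Figure D3:**
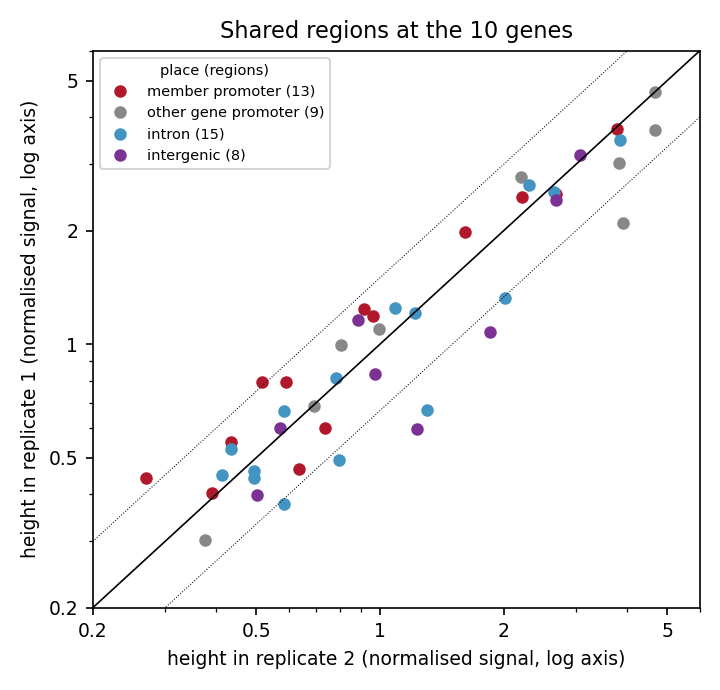
Height in replicate 1 (y axis) against height in replicate 2 (x axis), both in normalised signal on log axes, for the 45 shared regions in the windows of the 10 genes, coloured by place. The solid line is equality and the dotted lines 1.5 times; the Penk region 1.46 kb upstream (3.17 and 3.06) lies near equality, and the Scg3 region 36.4 kb upstream (1.08 and 1.85) lies outside the dotted lines.

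**Figure D4:**
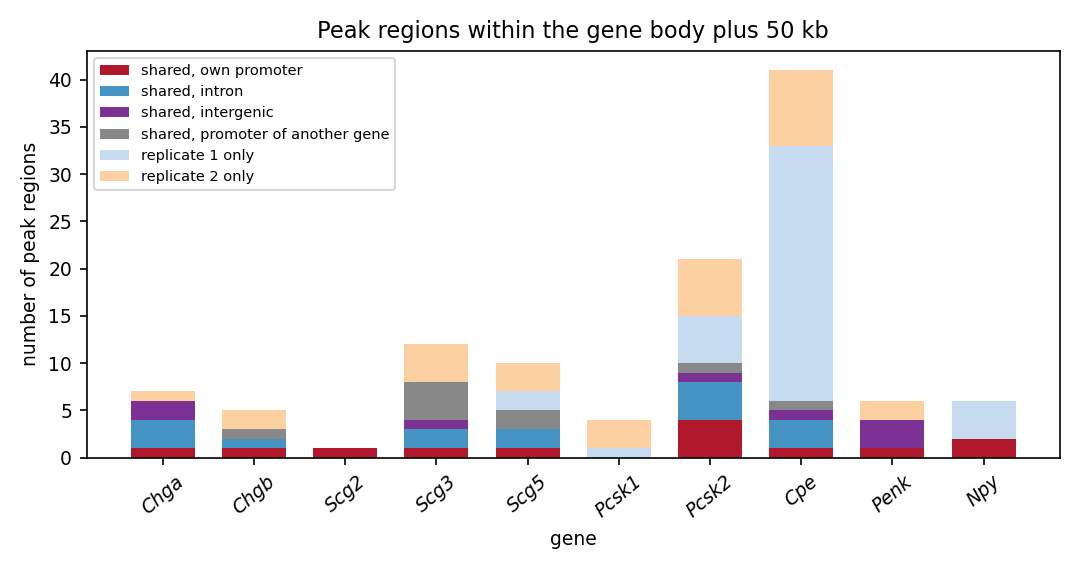
Number of peak regions (y axis) in the window of each of the 10 genes (x axis), stacked by place for shared regions and by library for the others. Cpe has 27 regions of replicate 1 alone, the tallest such block, and Pcsk1 has no shared region.

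The window of Cpe held peaks that differed between libraries. Replicate 1 listed 34 peaks there and replicate 2 listed 14. Of these, 27 and 2 lay inside the 15.7 kb body of Msmo1, a neighbouring gene for a sterol methyl oxidase of cholesterol synthesis, which the adrenal cortex uses. Outside Msmo1, replicate 1 listed 7 peaks and replicate 2 listed 12. The 24 Msmo1 peaks of replicate 1 with no overlap in replicate 2 had heights between 0.0584 and 0.441. Without the Msmo1 peaks, a choice made after seeing the data, 74.1% of the replicate 1 window peaks over all 10 genes lay in shared regions, and 60.0% of those of replicate 2. The reason for the Msmo1 difference was not tested.

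Footprints gave a finer view. The windows held 172 footprints in replicate 1 and 166 in replicate 2, of which 68 were shared. Shared distal regions held 30 of the 68 and the promoters of the 10 genes held 12. Scg3 had 12 shared footprints, Pcsk2 13, Cpe 10, Scg5 9, Chga 8, Chgb and Penk 7 each and Scg2 2. Pcsk1 and Npy had none, with 9 footprints of Pcsk1 in replicate 2 alone, and 5 and 3 of Npy in replicates 1 and 2 that did not overlap.

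RE1 letters recurred under these footprints. Exact RE1 matches lay under shared footprints at Chga, Chgb and Pcsk2, 3 of 68 footprints or 4.41%, against 208 of 114800 shared footprints of the genome, or 0.181%. Counted by gene, 3 of the 10 had such a match in their window, against 1.93% of all genes (421 genes). That share was not matched for window length, which ran between 105.3 kb (Penk) and 370.1 kb (Pcsk2) in the 10. All 3 exact matches in these windows lay in shared regions and under shared footprints, whereas 40.5% of the 620 exact matches genome-wide lay in a shared region and 33.7% under a shared footprint. At the Pcsk2 site, 9.47 kb upstream, the heights were 0.834 in replicate 1 and 0.975 in replicate 2. A footprint at these letters does not show which factor was bound, or in which cells.

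Other spellings, chosen after seeing the data, added further granin sites. With up to 2 letters differing, 4 of 68 footprints (5.88%) matched, against 0.445% of all, the addition being the Chga site 4.26 kb upstream. With both runs abutting, the Scg2 site matched, 1 of 68 against 2 of 114800, and that spelling occurred in 3 of 32851 RefSeq promoters. This spelling is the same as the letters of the Scg2 site, so its match there is not independent of the choice and the counts only describe it. Chga, Chgb and Pcsk2 had a shared footprint over the exact RE1, and Scg2 over the abutting spelling alone. The share of all genes with any of these spellings was not counted, so the spellings are not pooled into a count of genes. Among the other lists, an exact RE1 under a shared footprint was found in the windows of 2 of 7 other granule proteins, 1 of 11 other processing genes, 2 of 14 other peptide precursors, 2 of 6 neuronal markers, 1 of 6 cortex markers, 1 of 4 kidney markers, and 0 of 7 chromaffin, 0 of 5 Schwann cell, 0 of 4 hepatocyte, 0 of 4 endothelial and 0 of 4 fibroblast markers. The windows of those genes may hold sites of neighbouring genes as well.

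The intronic part of the Chga promoter region shows how its footprints sit. It is chr12:102555171-102555340 on the plus strand of GRCm38 and begins at the first base of intron 1. The open region itself begins earlier, at 102555141, and its first shared footprint at 102555167, so the first bases of that footprint are not shown. Bases under shared footprints are in capitals, with the RE1 letters inside the second capital run.
Chga intron 1 region: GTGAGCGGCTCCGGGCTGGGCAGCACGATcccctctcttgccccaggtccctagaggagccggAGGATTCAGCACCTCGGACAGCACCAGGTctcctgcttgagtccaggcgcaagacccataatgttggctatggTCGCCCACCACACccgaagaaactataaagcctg

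CRE letters were common in the promoters, both inside and outside the open regions. The RefSeq table, with 250 bases before to 50 after each start, held 8 of the 10 genes; Cpe and Penk had no entry. Searched on both strands, the full CRE was in 3 of 8 promoters (37.5%), those of Chgb, Pcsk1 and Scg2, against 1.79% of 32851 promoters. Its core TGACG, which the full CRE contains on each strand, was in 7 of 8 (87.5%), all but Npy, against 20.8%. The CREs began 68 bases upstream of the RefSeq start in Scg2, 72 in Chgb and 78 in Pcsk1, and the TGACG of Chga and Scg3 began 44 and 30 upstream.

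Of the 13 places where TGACG was found, 6 lay in shared regions, in 4 of the 7 promoters: Scg2, Scg3, Scg5 and Pcsk2. The Scg2 CRE was the one under a shared footprint. The CREs of Chgb and Pcsk1 and the Chga core lay in no shared region. Promoters of Chgb, Pcsk2 and Npy were rich in G and C, at 72.7%, 76.3% and 68.0%, against a median of 52.7% of the RefSeq promoters, and Pcsk1 had 49.3%. The pair CG, which TGACG and GGGCGG contain, was counted over its number expected from base content. That ratio ran between 0.422 (Scg5) and 0.856 (Scg2) in the 8 promoters, against a median of 0.384. Its part in the motif shares was not tested. The letters GGGCGG, read by SP and KLF factors, were in 6 of 8 promoters (75%), against 35.7% of all. Under shared footprints GGGCGG was in 7 of 68 (10.3%), against 12.3% of all, and the NFI letters TTGGC in 8 of 68 (11.8%), against 8.41%.

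**Figure D5:**
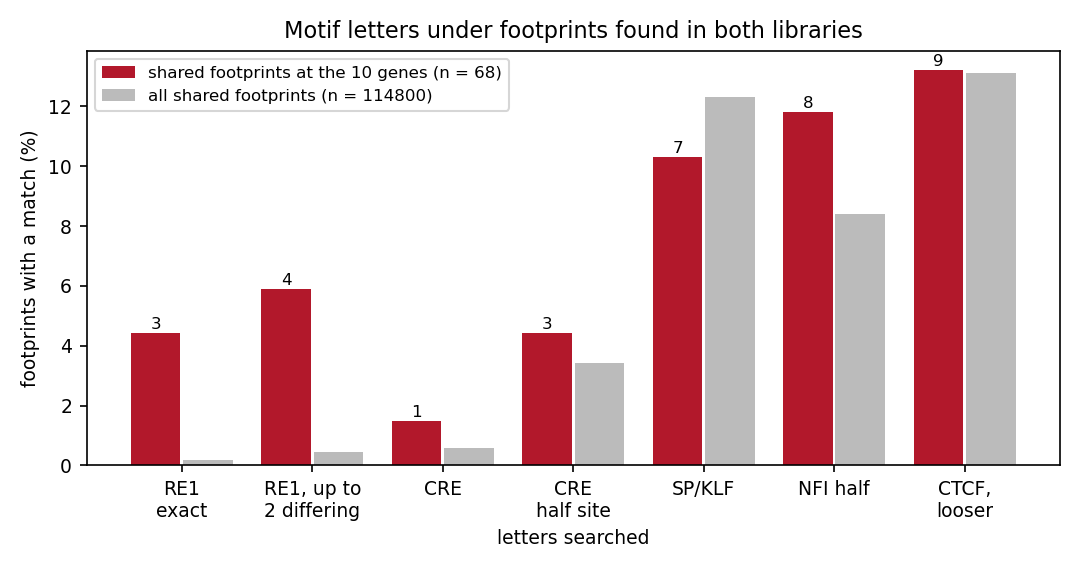
Percent of shared footprints with a match (y axis) for each motif searched (x axis), at the 10 genes (red, n = 68, with the number of footprints above) and over the genome (grey, n = 114800). RE1 stands at 4.41% against 0.181%, while the looser CTCF letters stand at 13.2% against 13.1%.

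CTCF letters under the footprints of these windows were about as frequent as elsewhere. The stricter CTCF spelling was in 1 of 68 footprints (1.47%), at Scg5, against 2.04% of all. A looser CTCF pattern was chosen after seeing the data and reads C, any 3 bases, AG, any 2 bases and GGC. It lay under shared footprints in 9 of the 23 distal regions (39.1%), against 27.9% of all 43097. Of the 5 highest distal regions 4 held it, those in Itpk1, upstream of Penk, in Scg5 and in Cpe, while 58.5% of the 6050 distal regions of the genome at least as high as 2.48 did. Over all footprints in the windows the share was 9 of 68 (13.2%), against 13.1% of all. The sequences under these footprints are given because these are the tallest distal regions, with the pattern's fixed letters in capitals. They lie at chr12:102579218-102579250 (plus strand), chr4:4140253-4140297 (plus strand), chr2:113807865-113807897 (minus strand) and chr8:64597226-64597254 (minus strand) of GRCm38.
Chga downstream, in Itpk1: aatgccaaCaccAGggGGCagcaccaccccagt
Penk upstream: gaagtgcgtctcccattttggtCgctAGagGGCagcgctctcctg
Scg5 intron: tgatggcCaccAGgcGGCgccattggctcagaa
Cpe intron: ttcgagcCagcAGgtGGCgccctttaccc

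Other genes of granules, processing and neuropeptides showed how the promoter counts ran outside the 10. Over all protein-coding genes, 64.8% were open in both libraries, with a median height of 3.89, and the lists below are short. Of 11 other processing enzymes and helpers, 9 were open in both libraries (81.8%), led by Ctsl, a lysosomal protease, at 5.87 ± 0.852, the carboxypeptidase gene Cpd at 5.53 ± 0.224 and the convertase gene Pcsk7 at 4.99 ± 1.42. Pcsk1n, which encodes the PC1/3 inhibitor proSAAS, and Cpz had no promoter peak in either library. All 7 other granule proteins were open, led by Vgf, a granin-like precursor, at 7.41 ± 0.462, Nucb2, the nesfatin precursor, at 6.68 ± 0.57 and Hid1 at 4.4 ± 0.256. Of 14 other peptide precursors, 6 were open in both (42.9%), led by the adrenomedullin gene Adm at 4.01 ± 0.205, Crh, the corticotropin-releasing hormone gene, at 2.34 ± 0.0358 and the neuromedin B gene Nmb at 2.14 ± 0.222. Pdyn, Tac1, Adcyap1, Nppa, Nts and Cck had no promoter peak in either library.

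Markers of cell types gave a limited check of the tissue label. Promoters were open in both libraries for 5 of 6 cortex, 5 of 6 neuronal, 3 of 4 endothelial and 3 of 4 fibroblast markers. The counts were 2 of 5 for Schwann cell markers, 0 of 4 for hepatocyte and 0 of 4 for kidney markers. Over all protein-coding genes the share was 64.8%, so counts of 3 of 4 or 5 of 6 do not set a cell type apart. Of 7 chromaffin markers 2 were open in both, Slc18a1 (vesicular monoamine transporter) at 10.9 ± 2.29 and Gata3 at 3.53 ± 0.26. A peak near the starts of several genes was counted for each, so a marker's height may belong to a neighbour. Neighbours of the markers were not examined. Th, Pnmt and Ddc, which encode enzymes of catecholamine synthesis, had no promoter peak in either library, and Dbh had one in replicate 1 at 0.515. The part of other cell types in the signal at the 10 genes was not tested. In all, 98630 peaks were listed in replicate 1 and 118249 in replicate 2.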

How the data were processed

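DNase-seq was measured in 2 libraries of adrenal gland. Per the labels and file index, the authors made peaks, footprints and FDR files per library from filtered alignments to mm10. Aligner and callers were not given in the sources used here. Heights are the authors' normalised signal, and the longer of 2 deposited peak lists was used. The deposited footprint score is 0.01 in every row and was not used. The deposited FDR (a q-value) is listed below 0.05 only. All heights lay within 0.05 of a whole step. The files do not state the read depth or the scale of the heights.

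Coordinates are 1-based on GRCm38, with GENCODE vM21; 27 ambiguous symbols were dropped. A promoter peak near starts of several genes counted for each. Peaks overlapping by at least 1 bp were merged into shared regions. Motif letters were searched on both strands, in footprints extended by 3 bp. Analysis used Python 3.11.15, numpy 2.4.6, pandas 2.3.3 and matplotlib 3.10.9, and interval code was checked on simulated data. Named from other lists were the 3 highest promoters and those with none. Values of 1 chromaffin marker are not reported here. The members and lists were chosen with earlier results of these data known. No test was run, since there is a single group; how CAST alleles differ from the reference was not examined. Alternatives were another peak list, promoter widths, flanks, overlaps, motif windows and leaving out a library.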

Additional observations from a re-analysis of the deposited data

How the results depend on the processing

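No paired analysis was possible because the samples form 1 group. The number of genes open in both libraries stayed between 8 and 9 under other peak lists and promoter widths; the shorter list dropped Scg5. The median promoter height moved to 1.44 with the shorter peak list and to 2.34 with promoters within 5 kb, where it takes in nearby regions, and other peptide precursors open in both then numbered 10. With a single library, it was between 0.937 and 1.24. With both libraries kept, single-gene heights were within 1 SD of the reported value in 33 of 35 cases; the other 2 came with promoters within 5 kb, where Penk stood at 3.11 and Chga at 2.55. Shared distal regions numbered 13 with flanks of 20 kb and 42 with 100 kb, and shared footprints 41 and 117, as fewer or more bases were searched. With a single library, distal regions numbered between 44 and 53 and footprints between 166 and 172, since overlap was no longer required. Footprints over RE1 with no gap numbered 1, and those over the looser CTCF letters 9 against 1 for the stricter spelling. Low heights limit Pcsk1, Npy, Penk and Scg5, with 59, 69, 79 and 98 steps in replicate 2, where the median peak had 100. In replicate 1, Npy and Penk had 150 steps each and Scg5 113, against a median of 135.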
